A study of Drosophila melanogaster with 2 samples.

Results

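The translation initiation and elongation factor genes of Drosophila melanogaster were examined for binding of CG2202-GFP in whole embryos aged 0 to 12 h. They were the 52 genes whose symbol begins with eIF or eEF in the Ensembl annotation, of 17896 annotated genes on the 6 chromosome arms analysed, and all 52 are protein-coding. IDR peaks (irreproducible discovery rate) are peaks of both replicates pooled that the authors kept at a threshold not given in the sources used here. An IDR peak had its summit within 500 bp of a transcription start site (TSS) at 15 of the 52, or 28.8%. The shares of the 13945 protein-coding genes and of all genes were 14.1% and 12.1%. A gene with such a summit is termed called. Of 1965 called protein-coding genes, 1940 had a promoter peak in both replicate lists, so a called gene need not have one in each. The strongest of these peaks lay at eIF4EHP, eIF6, eEF1gamma and eIF1. Except at eEF1gamma, their summits were nearer to the TSS of another gene, which at eIF1 was the ribosomal protein gene RpL28. All 5 genes of the exchange factor eIF2B, the helicase gene eIF4A and the cap-binding protein gene eIF4E1 had no IDR summit there. Counts within a factor complex rest on few genes, and beside the 14.1% share they are not read as traits of the complex.

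The data are chromatin immunoprecipitation sequencing (ChIP-seq) peak lists from 1 group of 2 labelled biological replicates. Each is whole embryos of sex not recorded, from a stable transgenic fly line in which GFP was joined to the C-terminus of CG2202. The sample text gives an antibody against GFP, while the antibody label names CG2202. Line, tag and stage were the same in both, and no other genotype or treatment was analysed. The sources used here do not give the promoter that drives the tagged protein or its insertion site, and whole embryos mix cell types and stages. Peaks were listed for each replicate, for both pooled and after the IDR step, and q is the caller's false discovery rate. There were 30000 peaks in each replicate list and in the pooled list, and 3571 IDR peaks. The lowest IDR signal, a strength set by the authors' peak caller, was 120.9. Read depth is unknown and no control group was analysed, so no test was run and the values are descriptions.

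Translation of most messenger RNAs begins when the cap-binding protein eIF4E, the scaffold eIF4G and the helicase eIF4A prepare the message for the small ribosomal subunit. That subunit carries eIF3, eIF1, eIF1A and eIF5, and the initiator tRNA held by eIF2, whose guanine nucleotide is renewed by eIF2B. After start codon recognition eIF5B helps the large subunit to join, which eIF6 otherwise keeps apart. In elongation eEF1 brings aminoacyl-tRNAs to the ribosome, eEF2 moves it along the message, and eEF5 (also called eIF5A) relieves stalling. In the early fly embryo, much of gene control acts on maternal messages through these factors, among them eIF4EHP, a cap-binding protein that represses translation.

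The 100 bases at the summit are shown for the 4 genes of highest IDR signal whose window could be printed, to show how unlike their sequences are. They are written 5′ to 3′ on the gene's strand, from the Release 6 genome of RefSeq, and the capitals mark any of the words TATCGATA (the core of the DNA replication-related element, DRE), GGTCACAC (the core of a Drosophila promoter motif), CAGCTG (an E-box), the promoter word TATAAA found upstream of many regulated genes, the repeat word GAGAG bound by Trl, the initiator word TCAGT found over many start sites, and the low-GC word TTTAAAAA, on either strand.
eIF4EHP, chr3R:24109132-24109231, minus strand: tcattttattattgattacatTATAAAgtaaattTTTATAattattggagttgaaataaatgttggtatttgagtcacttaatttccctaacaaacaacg
eEF1gamma, chr3R:29220099-29220198, plus strand: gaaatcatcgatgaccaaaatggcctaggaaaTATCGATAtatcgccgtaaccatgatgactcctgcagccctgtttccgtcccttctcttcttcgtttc
eIF1, chr3L:3222951-3223050, plus strand: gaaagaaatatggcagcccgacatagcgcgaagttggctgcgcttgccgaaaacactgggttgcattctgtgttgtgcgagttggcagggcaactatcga
eIF3h, chr2L:5052443-5052542, minus strand: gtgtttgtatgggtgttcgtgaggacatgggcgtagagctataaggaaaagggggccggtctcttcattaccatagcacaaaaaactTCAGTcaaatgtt

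The summit window of eIF4EHP held 22% G and C, and its capitals are TATAAA words on both strands. The windows of eEF1gamma, eIF1 and eIF3h held 46%, 53% and 45%. eEF1gamma alone of these 4 had the DRE core, and eIF1 had none of the 7 words.

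**Figure D1:**
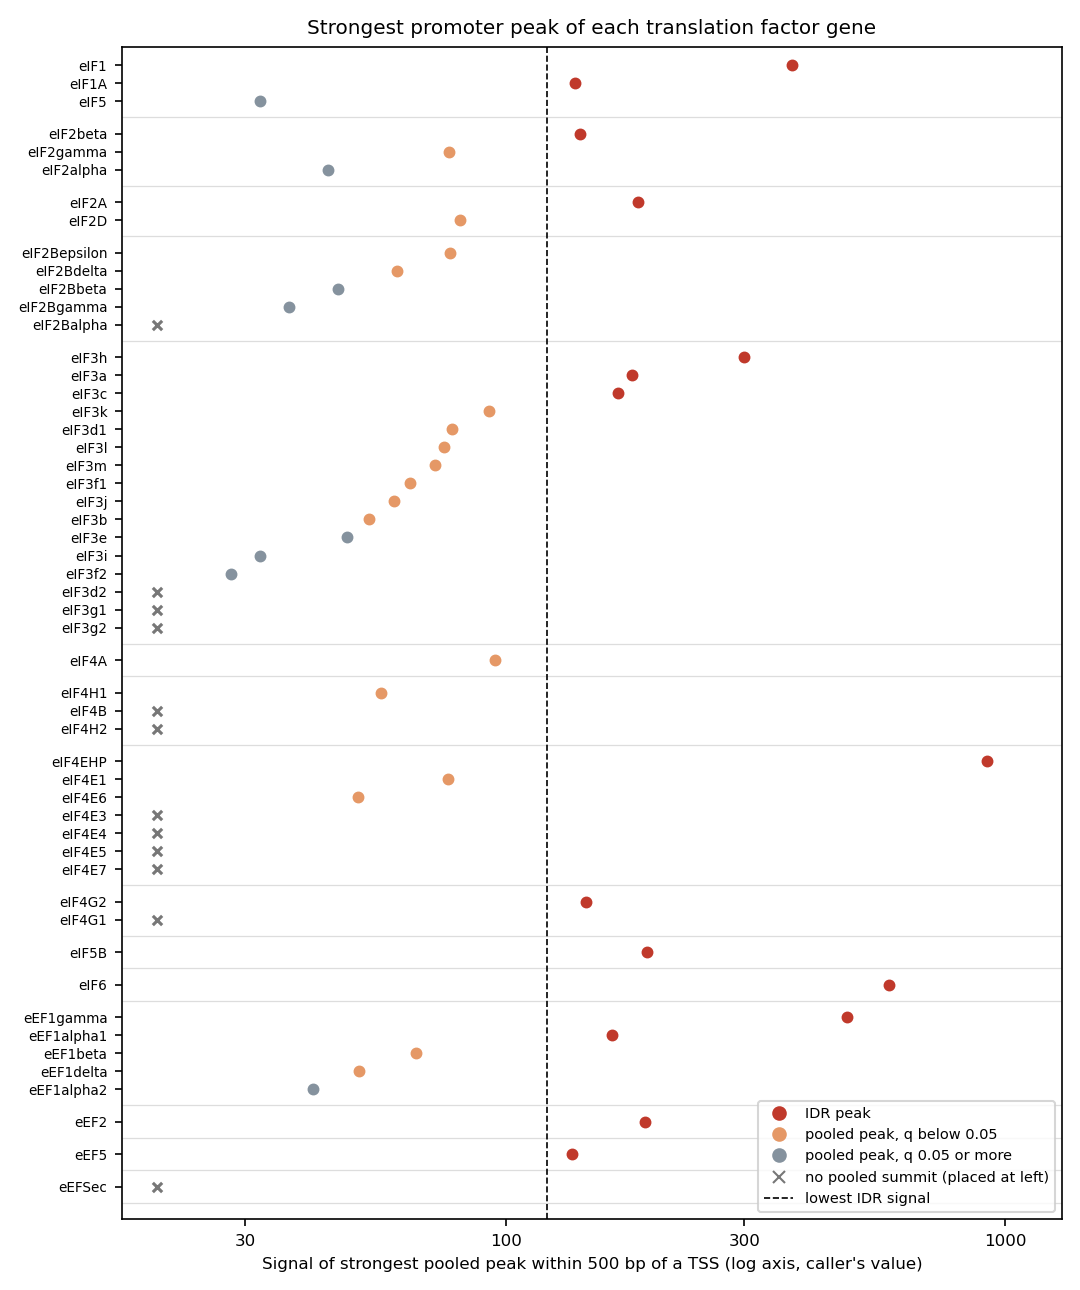
Signal of the strongest pooled peak with its summit within 500 bp of a TSS (log axis, the caller's value) for each of the 52 genes, grouped by factor. Red points are IDR peaks, orange and grey points other pooled peaks with q below 0.05 or not, and crosses at the left the 12 genes with no pooled summit; the dashed line is the lowest IDR signal, 120.9, and the highest point is eIF4EHP at 917.8.

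Among the cap-binding genes, 1 of 7 was called, against 14.1% of protein-coding genes. eIF4EHP (FBgn0053100) had the strongest peak of all 52 genes, at chr3R:24108987-24109388, with a signal of 917.8 and rank 47 of 3571 in the IDR list. Ranks are those of a gene's strongest promoter peak, 1 being the strongest of a list, and where a pair is given with no list named the replicate 1 rank precedes that of replicate 2. The peak of eIF4EHP ranked 262 with signal 253.3 in replicate 1 and 26 with signal 665.0 in replicate 2, so the gene stood high in both lists and higher in the second. The summit lay 222 bp upstream of its TSS and 154 bp upstream of that of CG18428 on the opposite strand, so the peak cannot be given to either gene. eIF4E1, the main cap-binding protein, had a pooled peak of signal 76.5 (q = 0.000636), and eIF4E6 one of 50.6 (q = 0.0359) that lay nearer to CG1951 (39 bp). eIF4E3, eIF4E4, eIF4E5 and eIF4E7 had no pooled summit within 500 bp. Of the 2 scaffold genes, eIF4G2, which in flies serves male meiosis, was called at 144.5, with ranks of 1642 and 5890. eIF4G1, on the small arm 4, had no pooled summit nearer than 25528 bp.

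The helicase group had no IDR summit at any of its 4 genes, a small group beside a share of 14.1% of protein-coding genes. eIF4A came closest, with signal 95.2, rank 5187 in the pooled list and 4709 in replicate 2. In replicate 1 the peak nearest to that pooled summit ranked 5804, and the gene's strongest promoter peak, 855 bp away at another TSS, ranked 5576. eIF4H1, whose human relative stimulates eIF4A, had 56.1, and the related genes eIF4B and eIF4H2 had no pooled summit. eIF4B lies at chr3L:27842669-27858271, beyond the last summit of any list on that arm (27267262). It is 1 of 4 such genes among the 2739 protein-coding genes of arm 3L.

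Of the 3 genes of start codon selection, eIF1 and eIF1A were called, against 14.1% of protein-coding genes. At eIF1 (FBgn0035423), which with eIF1A holds the scanning ribosome open, the peak had signal 374.9 in the IDR list, signal 215.6 and rank 372 in replicate 1, and signal 167.1 and rank 803 in replicate 2. It ran over chr3L:3222848-3223170. This summit was 340 bp upstream of eIF1 but 41 bp upstream of RpL28, a large-subunit ribosomal protein gene on the opposite strand. At eIF1A the signal was 137.3, with ranks of 2393 and 3980, and the summit lay 42 bp upstream of it and 177 bp upstream of Vps39. The third gene, eIF5, whose product triggers GTP hydrolysis by eIF2, had a pooled peak of 32.1 that did not reach a q of 0.05 (q = 0.294).

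Within eIF2, the beta subunit gene was called and the others were not, against 14.1% of protein-coding genes called. eIF2beta had a signal of 141.0, with ranks of 2216 in replicate 1 and 4915 in replicate 2, at a summit 266 bp upstream of its TSS. eIF2gamma had 76.7 (q = 0.000355) at a start site it shares with Su(var)3-9, a histone methyltransferase gene, and near that of Set on the opposite strand. eIF2alpha had 44.0 (q = 0.0863). In eIF2B, 2 of 5 genes had a pooled peak with q below 0.05, against 39.9% of protein-coding genes. They were eIF2Bepsilon at 77.1 and eIF2Bdelta at 60.4, with summits nearer to Ocrl (60 bp) and roh (49 bp). eIF2Bbeta stood 683 bp from the summit of an IDR peak of signal 1404, rank 12, which lay at the start site of Ugalt, and its own promoter peak had 46.0. eIF2Bgamma had 36.8, and eIF2Balpha had no pooled summit but a peak of rank 6474 in replicate 1. eIF2A, a factor of alternative initiation, was called at 183.9, with ranks of 1339 and 4275. eIF2D, another such factor, had 80.8.

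eIF3, the scaffold on the small subunit, had 3 of 16 genes called, against 14.1% of protein-coding genes. They were eIF3h (299.2), eIF3a (178.9) and eIF3c (167.6). All 3 ranked within the top 3571 of both replicates. eIF3h ranked 752 with signal 153.6 in replicate 1 and 1024 with signal 146.1 in replicate 2, eIF3a 1734 and 2535, and eIF3c 2145 and 2355. eIF3h had 2 IDR summits, at 287 and 87 bp downstream of its TSS, in an intron and a coding exon. Both lay within 500 bp of senju on the opposite strand. A further 7 genes of the complex had a pooled peak with q below 0.05, from 53.2 at eIF3b to 92.5 at eIF3k. The others of these 7 were eIF3d1, eIF3f1, eIF3l (75.2), eIF3m (72.1) and eIF3j (59.6). Among all protein-coding genes, called ones included, 39.9% had a pooled peak with q below 0.05. Another 3 genes of the complex had one above that q, eIF3e at 48.0, eIF3i at 32.2 and eIF3f2. The summits given for eIF3l and eIF3b lay nearer to other genes, 36 bp from the TSS of Nrx-IV and 14 bp from that of Patronin. A second pooled summit at eIF3b, of signal 50.9, lay 4 bp downstream of its own TSS. Within eIF3, neither member of a pair of related copies was called, few genes beside the 14.1% share of protein-coding genes. eIF3d1, eIF3f1 and eIF3g1 stood at 77.9, at 64.3 and at no pooled summit, and eIF3d2, eIF3f2 and eIF3g2 at no summit, at 28.1 and at no summit.

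Of the single-gene factors, eIF6 (FBgn0034915) had an IDR signal of 584.8, signal 227.6 and rank 335 in replicate 1, and signal 348.2 and rank 160 in replicate 2. It was thus high in both lists. The summit was 89 bp upstream of its TSS and 60 bp inside the antisense RNA gene asRNA:CR45928. eIF5B had 191.9, with ranks of 2101 and 2114, the closest agreement of the 15 genes.

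Elongation factor genes were called at 4 of 8, against 14.1% of protein-coding genes. eEF1gamma (FBgn0029176), a subunit of the exchange complex that recharges eEF1alpha, had an IDR signal of 483.0 at chr3R:29219967-29220285. It ranked 140 with signal 309.7 in replicate 1 and 672 with signal 184.1 in replicate 2. No TSS of another gene was within 500 bp. eEF2, the translocase gene, had 189.5, with ranks of 1208 and 2865, and eEF5 had 135.6, with ranks of 2712 and 3586. eEF1alpha1, the main gene for the tRNA-delivering subunit, had 163.3 and rank 1833 in replicate 1. In replicate 2 its strongest promoter peak, of rank 2792, had its summit 1033 bp away at another of its TSSs (-11 bp, minus meaning upstream). That TSS lies beside the start site of ERp60 on the opposite strand, and the pooled summit there was nearer to ERp60 (32 bp against 124 bp). In replicate 2 the peak nearest to the eEF1alpha1 IDR summit ranked 3108. The related gene eEF1alpha2 had 41.0 (q = 0.122). The exchange subunit genes eEF1beta and eEF1delta had 65.9 and 50.7. eEFSec, the selenocysteine factor, had no pooled summit within 500 bp.

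Below the IDR list, a pooled summit was present at 40 of 52 genes, or 76.9%, against 53.5% of protein-coding genes, and at 32 genes, or 61.5%, with q below 0.05, against 39.9%. Among genes with any pooled promoter summit, the called share was 15 of 40, or 37.5%, against 26.4% for protein-coding genes. The median signal of the 15 called genes was 183.9, against 197.6 over the 1965 called protein-coding genes. Called translation factor genes were thus not stronger than called genes at large, but a larger share was called. The weakest called gene was eEF5, and the strongest uncalled were eIF4A (95.2) and eIF3k (92.5). At the edge of the 500 bp window, the strongest pooled summits of eIF3l and eIF3b lay 458 and 333 bp upstream of their TSSs, and that of eIF2Bbeta 300 bp downstream. A weaker pooled summit of eIF3b (50.9) lay 4 bp downstream of its TSS. The summit nearest to eIF4H2, 784 bp upstream, was outside the window. The IDR summits nearest to the window from outside were those at eIF2Bbeta (683 bp), eIF2Bgamma (1275 bp upstream), eIF3d1 (1320 bp upstream), eIF3g1 (1372 bp downstream) and eIF2gamma (2159 bp upstream).

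**Figure D2:**
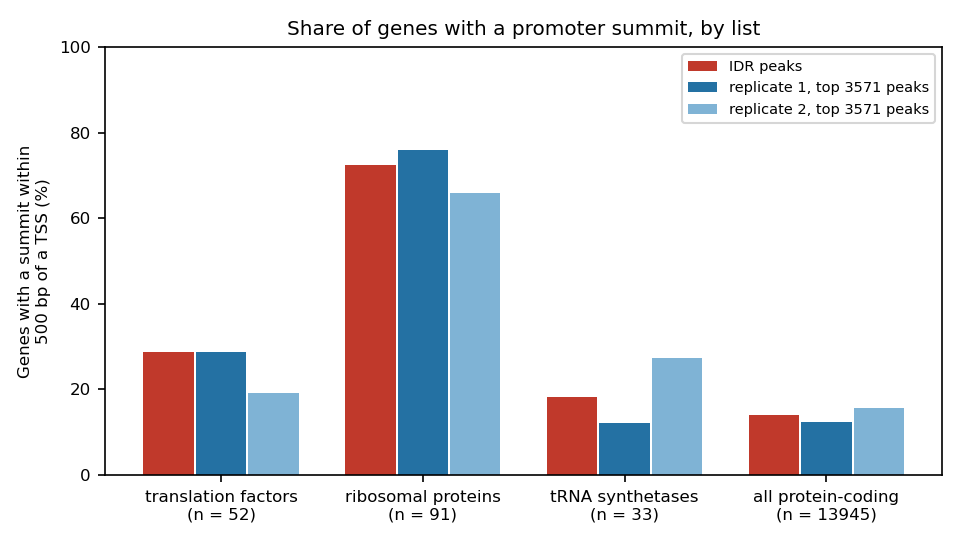
Share of genes (%) with a summit within 500 bp of a TSS among translation factor, ribosomal protein, aminoacyl-tRNA synthetase and all protein-coding genes, in the IDR list and in the top 3571 peaks of each replicate. Translation factor genes stand at 28.8%, 28.8% and 19.2%, between ribosomal protein genes and protein-coding genes as a whole, and synthetase genes lie below them in the IDR list (18.2%) and replicate 1 (12.1%) and above them in replicate 2 (27.3%).

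Other classes of the translation apparatus differed in their shares, and their order was not the same in the 2 replicates. Ribosomal protein genes were called at 66 of 91, or 72.5%, and aminoacyl-tRNA synthetase genes at 6 of 33, or 18.2%. In the top peaks of replicate 1 the synthetase genes stood at 4 of 33, or 12.1%, below the translation factor genes. In those of replicate 2 they stood at 9 of 33, or 27.3%, above the 19.2% of translation factor genes. Of 37 further genes of translation and its control, 34 matched the annotation and 8 were called, or 23.5%, against 14.1% of protein-coding genes. The top peaks of replicate 1 held 7 of them (12.4% of protein-coding genes) and those of replicate 2 held 11 (15.8%). Among the 34, larp, whose product binds messages with a pyrimidine-rich start, had a signal of 824.5. Elp6 (also called poly) had 438.4, and the eIF2 kinase gene Gcn2 had 264.1. Thor, the gene for the inhibitor of eIF4E, had 203.8, and Lk6, a kinase of eIF4E, had 162.1. The release factor gene eRF3 had 157.5 and bel, a helicase gene, 155.3. The summits at Elp6, Gcn2 and eRF3 were also within 500 bp of a TSS of Dic1, Ugt35D1 and SC35. None of these differences was tested.

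The replicates differed over the called genes. Each replicate list was limited to its top 3571 peaks, as many as the IDR list holds. In replicate 1 such a summit lay at 15 of 52 genes, or 28.8%, against 12.4% of protein-coding genes. In replicate 2 it lay at 10, or 19.2%, against 15.8%. The 15 were those with an IDR summit, the 10 were among them, and 10 of 52 in both compares with 9.26% of protein-coding genes. Since the replicate lists went into the IDR list, this is no independent check. The 5 genes outside the top 3571 of replicate 2 were eEF5 (rank 3586), eIF1A, eIF2A, eIF2beta and eIF4G2 (rank 5890).

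The strongest promoter peak ranked higher in replicate 1 at 13 of 15 called genes, and higher in replicate 2 at eIF4EHP and eIF6. Of 1940 called protein-coding genes in both lists, 659, or 34.0%, ranked higher in replicate 1. The median rank of the 15 was 1642 in replicate 1 and 2535 in replicate 2, whereas for called protein-coding genes it was 2028 and 1480. Over the 33 translation factor genes with a promoter peak in both replicate lists, Spearman's rho of the ranks was 0.790, against 0.641 over 6076 protein-coding genes. These are correlations across genes, which share the same 2 libraries and are not replicates.

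**Figure D3:**
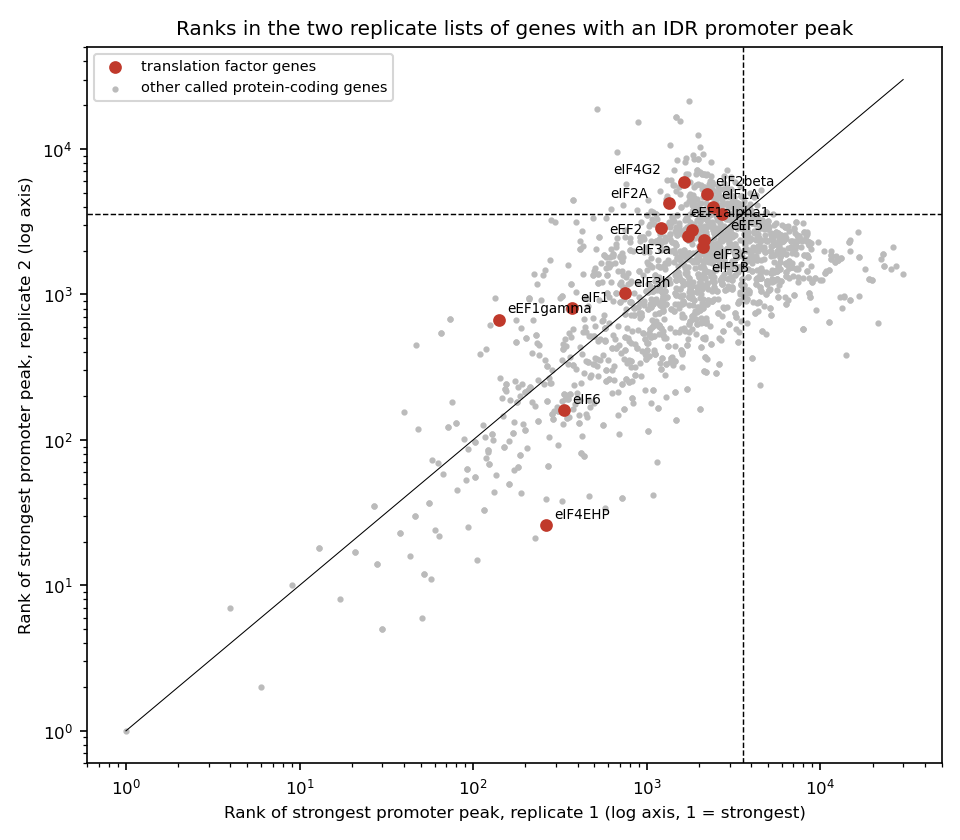
Rank of the strongest promoter peak in replicate 1 (x axis) and replicate 2 (y axis), both log axes with 1 the strongest, for genes with an IDR summit at a TSS. Red points are the 15 translation factor genes and grey points other protein-coding genes, dashed lines mark rank 3571, and 13 of the 15 lie above the line of equal rank.

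Base composition moved with this difference. Mean GC content of the 100 bases at the summit was 44.3% over the 15 called genes (SD 8.04 across summits), against 34.1% over 1511 IDR promoter summits of protein-coding genes (SD 10.5). Counted by gene, the mean over 1965 called protein-coding genes was 33.2% (SD 10.3). Apart from eIF4EHP at 22%, the 15 lay between 36% at eIF3c and 55% at eIF3a. Top promoter summits averaged 38.1% GC in replicate 1 (SD 10.2, 1407 summits) and 31.8% in replicate 2 (SD 9.91, 1633 summits). Called protein-coding genes that ranked higher in replicate 1 averaged 40.3% (659 genes), and those higher in replicate 2 29.6% (1280 genes). The part of base composition in the ranks was not tested. For translation factor genes with a pooled but no IDR summit, the mean was 44.0% (SD 7.45, 25 genes), against 41.0% (SD 10.4, 5491 genes) for such protein-coding genes. Called ribosomal protein genes had 44.3% (SD 8.25, 66 genes).

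**Figure D4:**
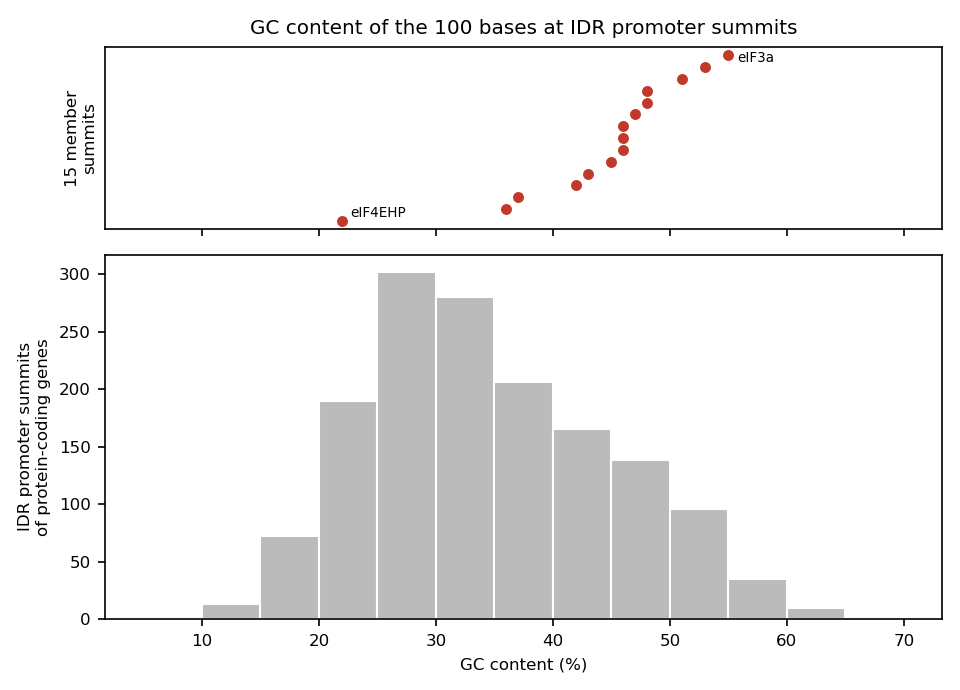
GC content (%) of the 100 bases at the summit, with 1 point for each of the 15 called translation factor genes, stacked in order (top), and the number of IDR promoter summits of protein-coding genes per 5% bin (bottom). The points average 44.3%, with eIF4EHP the lowest at 22%, and the 1511 summits average 34.1%.

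The DRE core, TATCGATA, is the binding word of the factor Dref in promoters of replication and growth genes. It was in the summit window of 3 of 15 called genes, against 3.10% of called protein-coding genes and 2.58% of the 1511 IDR promoter summits. Among genes with a pooled but no IDR summit it was at 4 of 25, against 4.81% of such protein-coding genes. Called ribosomal protein genes had it at 8 of 66, or 12.1%. Since 3 genes carry the first count, it is a description. The 30 bases around the word are shown for all 7 genes, to show that the sequences beside it differ, again 5′ to 3′ on the gene's strand in Release 6 coordinates, with the word in capitals.
eEF1gamma, chr3R:29220120-29220149, plus strand: ggcctaggaaaTATCGATAtatcgccgtaa
eIF2A, chr3L:21824865-21824894, plus strand: ttactatcgctTATCGATAcaccgcgtaca
eIF3a, chr3R:4433915-4433944, minus strand: tcggcctgaacTATCGATAacgcagccagg
eIF2gamma, chr3R:15263449-15263478, minus strand: gattagagcacTATCGATAggcattgtcgg
eIF3f1, chr3R:4714172-4714201, minus strand: cccacccgcacTATCGATAggcccttttct
eIF4E6, chr3R:29027214-29027243, minus strand: atcacgcgataTATCGATAtgtttcgattg
eIF2alpha, chrX:16446988-16447017, minus strand: acgcaattaaaTATCGATAacaccactgtc

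In these 7 genes the last base of the word lay upstream of the nearest TSS in each case, from 1 bp at eIF3f1 and 2 bp at eIF2gamma to 51 bp at eIF4E6 and 82 bp at eIF2A. The peak signals ranged from 44.0 at eIF2alpha to 483.0 at eEF1gamma, so the word stood at strong and weak peaks alike. Of the other words, the eIF2A window held GGTCACAC and the initiator word, that of eIF2alpha GGTCACAC and that of eIF4E6 GAGAG.

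Of the other words on either strand, TCAGT was in 5 of 15 windows (15.9% of IDR promoter summits), TATAAA in 2 (24.0%), GAGAG in 2 (8.74%) and GGTCACAC in 1 (1.99%). CAGCTG and TTTAAAAA were in 0 of 15, at 4.50% and 8.07% of promoter summits. The TCT initiator, a start-site element of ribosomal protein genes, was searched as CTTT with its C within 5 bases of a TSS on the gene's strand. This word, which need not be the element itself, was present at 7 of 52 translation factor genes, or 13.5%. The shares were 8.07% of protein-coding genes and 63.7% of ribosomal protein genes. The 7 were eEF1alpha1, eEF2 and eEF5, which were called, and eIF3f1, eIF3i, eIF3m and eIF4A, which were not. At the start site nearest to the strongest peak, the C of CTTT lay 4 bp downstream of the TSS at eEF2, with a signal of 189.5. At eIF4A, with 95.2, it lay at -4 bp.

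Summits lay close to the start site. The strongest IDR summit was within 100 bp of the gene's nearest TSS at 9 of 15 genes, or 60.0%, against 32.7% of called protein-coding genes. The median position was -23 bp, minus meaning upstream, against -128 bp, and 10 of 15, or 66.7%, lay upstream, against 82.1%. By annotation 7 of the 15 summits lay in a 5′ UTR of the gene, 7 outside it and 1, at eIF3h, in an intron. At eEF5, eIF2A and eIF5B the summit was upstream of the nearest TSS but inside the gene, downstream of another of its TSSs. The closest were eIF3a (-7 bp), eIF3c (8 bp), eEF2 (10 bp), eEF5 (-20 bp) and eEF1gamma (-23 bp). The farthest were eIF1 (-340 bp) and eIF3h (287 bp).

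**Figure D5:**
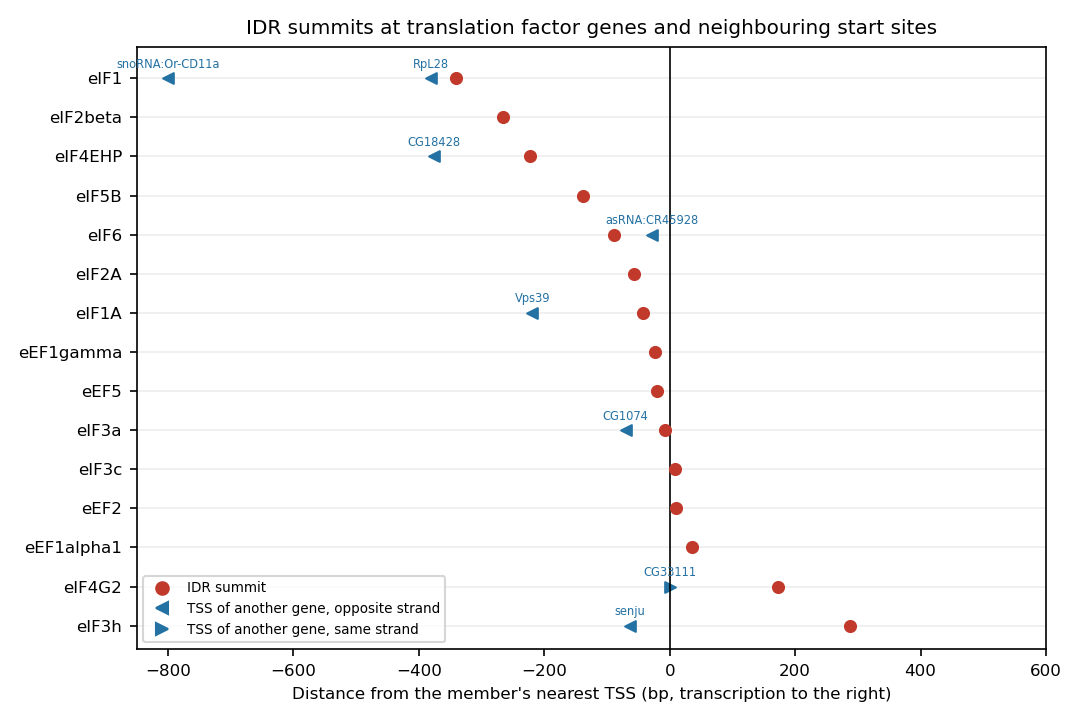
Position of the strongest IDR summit (red) at each of the 15 called genes, in bp from the gene's nearest TSS with transcription to the right, and TSSs of other genes within 500 bp of that summit (blue triangles). Summits run from -340 bp at eIF1 to 287 bp at eIF3h, and 9 of 15 lie within 100 bp of the start site.

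The peak was shared with another gene, by a TSS within 500 bp of the same summit, at 7 of 15 genes, or 46.7%, against 58.9% of called protein-coding genes. At 6 of them the other gene was on the opposite strand, namely CG18428 at eIF4EHP, asRNA:CR45928 at eIF6, RpL28 at eIF1, senju at eIF3h, CG1074 at eIF3a and Vps39 at eIF1A. At eIF4G2 it was CG33111 on the same strand, whose TSS is at the same base. The other 8 genes, eEF1gamma, eIF5B, eEF2, eIF2A, eIF3c, eEF1alpha1, eIF2beta and eEF5, had a peak with no other gene's TSS in reach. In 3 of the 6 opposite-strand pairs, those of eIF4EHP, eIF6 and eIF1, the summit lay nearer to the other gene.

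The called genes were spread over arms 2L (2 of 5, against 14.8% of protein-coding genes there), 2R (4 of 13, against 12.5%), 3L (4 of 11, against 15.3%) and 3R (5 of 15, against 15.7%). None of the 7 genes on X was called, where 11.4% of protein-coding genes were, and eIF4G1 is the only gene of the set on arm 4.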

How the data were processed

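Binding of CG2202-GFP was measured by ChIP-seq in 2 biological replicates of whole embryos aged 0 to 12 h. Per the deposited text files, the authors called peaks on each replicate and on both pooled, against a control, in dm6 (Release 6) coordinates, and derived an IDR list from these. Aligner, caller and IDR threshold remain not given in the sources used here. The deposited signal is the caller's value on an unstated scale, compared within a list only. The deposited −log10 q-value has 1 maximum per list. The deposited summit offset, in bases, was added to the peak start. Chromatin was sonicated, with a size range of 200 to 800 per the labels.

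Each summit was assigned to every gene with 1 of 23722 TSSs (Ensembl annotation, pseudogenes and transposable elements left out) within 500 bp. A called gene had an IDR summit there, and its strongest peak gave its values. Every gene matching the symbol rule was accounted for, with full values for called genes and others given by complex. The genes and comparison lists were chosen with earlier results of these data known. For replicates, the top 3571 peaks by signal were taken. Sequence was read from the RefSeq genome of the same assembly, in 100 bases at the summit. The assignment was tested on simulated data and recovered 102 of 102 placed summits. Computation used pandas 2.3.3, numpy 2.4.6, matplotlib 3.10.9 and Python 3.11.15. Read depth and its precision are unknown from peak lists. Alternatives were the window, the peak list, the overlap rule, the TSS used and each replicate alone.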

Additional observations from a re-analysis of the deposited data

How the results depend on the processing

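In parentheses are the values of protein-coding genes, or for shared peaks of called ones, under the same setting. The count of translation factor genes with an IDR summit at a TSS was 15 (14.1%). It was 13 with a 250 bp window (11.4%), without eIF1 and eIF2beta, and 16 with 1000 bp (16.3%), with eIF2Bbeta. Overlap of at least 1 bp gave 15 (14.98%), and overlap of 50% of the peak gave 15 (14.1%). The 5′-most TSS alone gave 14 (12.4%). Leaving out a replicate gave 10 from replicate 2 alone (15.8%) and 15 from replicate 1 alone (12.4%). With the 1000 strongest IDR peaks 5 genes were called (4.39% of protein-coding genes), the median signal was 483.0, the median position -89 bp (called protein-coding genes -148 bp), and 4 peaks were shared with another gene (58.2%). With pooled peaks at q below 0.05 the count was 32 (39.9%). With the top 1000 peaks, top-ranked genes numbered 5 in replicate 1 (3.49%), 4 in replicate 2 (4.85%) and 4 in both. With q below 0.05 they numbered 27 (32.2%), 29 (39.6%) and 22. Shares of protein-coding genes in both replicates were not computed under these settings. From 1 replicate alone, the median signal ranged from 99.8 to 119.6, each on its own list's scale, and the median position from -56 to -18 bp. With 1000 bp, 12 peaks were shared (64.0%). The cause of these changes was not tested. No paired analysis was possible because there is 1 group and no other condition. Neither the depth of the libraries nor the signal's scale is known, so absence from a list is not absence of binding.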
